A study of Homo sapiens with 6 samples.

Results

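The genes described here are 10 contractile and actin-binding genes, the smooth-muscle actin and tropomyosin program, read in A549 cells, a human lung adenocarcinoma line. They were chosen by name as the rows of the count table whose symbol is ACTA2, ACTG2, TAGLN, TPM1, TPM2, TPM4, CNN1, CNN2, CALD1 or MYL9. All 10 were found among the 60624 genes of the table, and 9 of the 10 had enough reads to pass the low-count filter. PolyA RNA was sequenced from RAVER1 knockout A549 cells, made by CRISPR/Cas9 deletion (genotype "RAVER1 knockout", 3 libraries), and from parental A549 cells (genotype "WT", 3 libraries). The labels give no further treatment for either group. Knockout titles carry the tag KO2, and the labels do not say whether this is 1 clone, so differences between clones and the deletion itself cannot be told apart.

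Smooth-muscle actin filaments carry tropomyosin along their groove, and calponin, transgelin and caldesmon bind the same filaments, while the myosin regulatory light chain switches the motor that pulls on them. Many of these genes are known to be switched on together by serum response factor (SRF), which binds a short DNA element called the CArG box and works with the coactivators myocardin (MYOCD) and the myocardin-related factors MRTFA and MRTFB. In epithelial cells, transgelin and tropomyosin transcripts are known to respond to TGFB, and they are often read during epithelial-mesenchymal transition. RAVER1 is an RNA-binding protein known to work with the splicing repressor PTBP1, and the pair was described on the choice of mutually exclusive exons in rat alpha-tropomyosin, the rat counterpart of TPM1. The counts used here are sums over whole genes and hold no information on exon choice.

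The CArG box was searched in the 250 bases before each annotated start, taken from RefSeq on GRCh38.p14. The table held promoters of 8 of the 10 genes, 15 promoters in all, and none for TAGLN or MYL9. A perfect CArG box stood in a promoter of 3 of these 8 genes, ACTG2, TPM4 and CNN2, against 1.44% of the 27305 genes in the table. The box reads as the same pattern on both strands. With 1 mismatch allowed at any position, 4 of the 8 genes had a match of that kind (ACTG2, ACTA2, TPM4 and CALD1), against 19.0% of genes. A gene counted when any of its promoters matched, so genes with more promoters match more easily. Over all 35116 promoters, 1.16% held a perfect box and 15.9% a box with 1 mismatch. The 4 promoters below are shown because they hold the boxes, and because their genes ran from almost no reads (ACTG2) to among the most read of the 10 (TPM4). Capitals mark the perfect boxes in ACTG2, TPM4 and CNN2, and the boxes with 1 mismatch in ACTA2. A box with 1 mismatch in the ACTG2 promoter, beginning 239 bases before the start, is not marked. Each run is given 5′ to 3′ on the strand of the gene.
ACTG2, plus strand, chr2:73892758-73893007: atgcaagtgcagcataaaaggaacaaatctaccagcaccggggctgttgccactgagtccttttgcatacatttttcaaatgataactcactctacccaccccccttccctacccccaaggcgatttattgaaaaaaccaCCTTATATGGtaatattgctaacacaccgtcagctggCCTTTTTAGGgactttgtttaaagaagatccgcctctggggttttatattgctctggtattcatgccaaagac
TPM4, plus strand, chr19:16067288-16067537: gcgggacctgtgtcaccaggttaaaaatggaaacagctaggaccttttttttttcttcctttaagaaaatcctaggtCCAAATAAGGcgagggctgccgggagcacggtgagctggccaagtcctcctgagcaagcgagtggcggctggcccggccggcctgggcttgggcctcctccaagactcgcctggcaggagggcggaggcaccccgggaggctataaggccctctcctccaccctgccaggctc
CNN2, plus strand, chr19:1026358-1026607: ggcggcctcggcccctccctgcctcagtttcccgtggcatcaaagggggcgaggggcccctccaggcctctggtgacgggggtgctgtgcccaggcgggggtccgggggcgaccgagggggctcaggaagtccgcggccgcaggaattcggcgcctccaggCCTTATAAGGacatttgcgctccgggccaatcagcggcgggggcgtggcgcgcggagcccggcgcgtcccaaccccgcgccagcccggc
ACTA2, minus strand, chr10:88952774-88953023: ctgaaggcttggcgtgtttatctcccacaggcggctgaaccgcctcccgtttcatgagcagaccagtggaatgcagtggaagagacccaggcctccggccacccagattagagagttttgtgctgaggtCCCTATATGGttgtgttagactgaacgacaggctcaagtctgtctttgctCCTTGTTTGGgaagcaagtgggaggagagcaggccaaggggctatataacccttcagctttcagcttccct
The ACTG2 promoter held CCTTATATGG beginning 110 bases before the start and CCTTTTTAGG beginning 73 bases before it. In TPM4 the box was CCAAATAAGG at 173 bases, in the first of 3 annotated promoters, and in CNN2 it was CCTTATAAGG at 89 bases. The ACTA2 promoter at the inner of its 2 starts held CCCTATATGG at 121 bases and CCTTGTTTGG at 71 bases. The other annotated TPM4 promoters held no perfect box, and whole-gene counts do not tell which promoter the TPM4 reads came from. A match is a run of letters and not a measured binding site.

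Total counts ran from 31200927 to 39910127 in the knockout libraries and from 29811747 to 34359060 in the parental libraries. RAVER1 averaged 2.73 ± 0.165 CPM (reads relative to the TMM-scaled library size) in knockout and 69.7 ± 3.80 CPM in parental libraries (SD, n = 3 each), so the labels held for the deleted gene. Keratins and CDH1, which mark epithelial cells, were read in all 6 libraries. Of the 6 epithelial markers tested, 5 were lower in knockout cells, against 20.1% of all genes tested. The keratin KRT7 was higher, at 2906 CPM in knockout and 1985 CPM in parental libraries. The lung markers NKX2-1, SFTPA1, SFTPB and SFTPC had at most 6 reads in any library. Of 10 markers of differentiated smooth muscle, the defining ones were near or at 0 in both groups, with MYH11 at 3 to 9 reads in knockout and 3 to 7 in parental libraries, DES at 0 or 1 read and KCNMB1 and PLN at 0. The summed level of the 10 ran from 258 to 273 CPM in knockout and from 215 to 229.6 CPM in parental libraries, nearly all of it from SYNM, PPP1R14A and SMTN, which A549 cells expressed in both groups. Summed levels of 9 fibroblast markers ran from 81.1 to 86.8 CPM in knockout and from 56.5 to 61.2 CPM in parental libraries. DCN was at 0 in all 6 libraries, and 5 of the 9 were too low to be tested. The 4 tested were higher, against 21.3% of all genes tested. Among these 4, COL3A1 had 2 to 9 reads per parental library and PDGFRA 6 to 13. Both passed the low-count filter through their knockout libraries, so their place among the tested genes was not independent of their rise. Summed levels of 7 endothelial and leukocyte markers stayed below 0.182 CPM in every library. The part of other cell types in the results below was not tested. Fewer cells that use a gene and less RNA per cell cannot be told apart in these bulk libraries.

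Among the 9 contractile genes tested, 5 were higher and 1 was lower in knockout cells at an edgeR adjusted p under 0.05. MYL9 and TAGLN rose most, the 3 tropomyosin genes rose 1.22-fold to 1.27-fold, and ACTA2 fell. CNN1, CNN2 and CALD1 did not pass the test, and ACTG2 was too low to be tested. The median log2 fold change of the 9 genes was 0.28, against 0.0019 over all 16652 genes tested. Over all genes tested, 21.3% were called higher and 20.1% lower, 41.4% together, so a call by itself is common in these libraries. Groups that did not overlap are common too: they were seen for 6 of the 9 genes and for 50.2% of all genes tested. At 2-fold or more, MYL9 and TAGLN were the 2 contractile genes called, against 6.83% of all genes tested in either direction. MYL9 passed the low-count filter through its knockout libraries, since 1 of its 3 parental libraries reached the filter's level of 0.301 CPM, so its place among the tested genes was not independent of its rise.

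**Figure D1:**
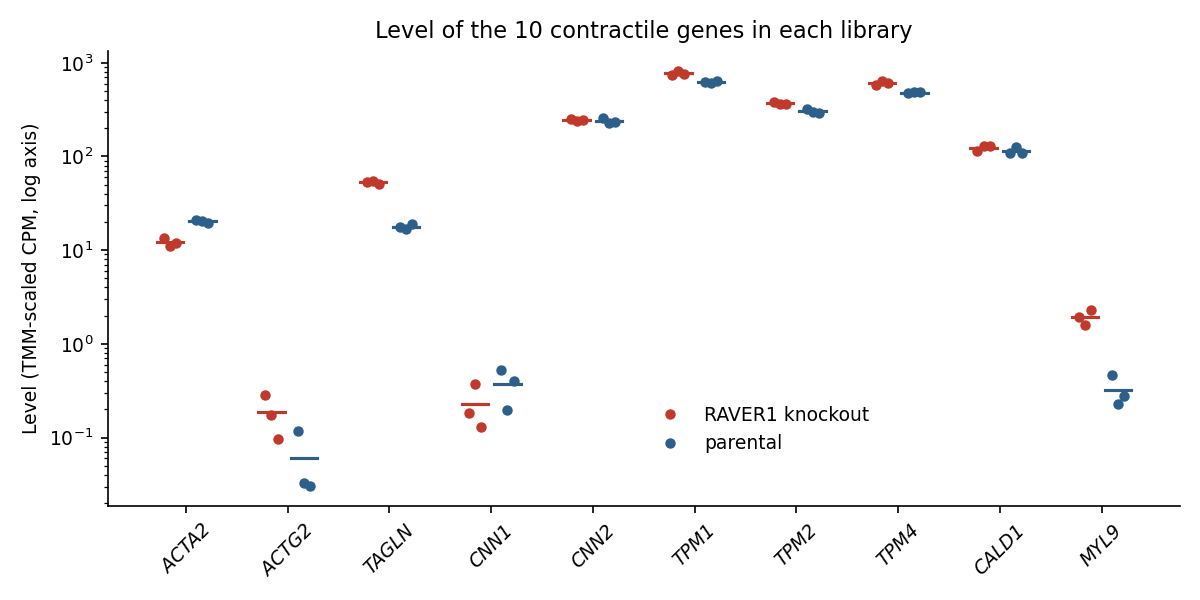
TMM-scaled CPM of the 10 contractile genes on a log axis, 1 point per library and a line at the group mean, with RAVER1 knockout in red and parental in blue. The groups stand apart for ACTA2, TAGLN, TPM1, TPM2, TPM4 and MYL9 and overlap for ACTG2, CNN1, CNN2 and CALD1.

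TAGLN encodes transgelin (SM22 alpha), an actin-bundling protein of the calponin family and a common readout of SRF and TGFB activity. It had 54.0, 54.5 and 50.6 CPM in knockout libraries, against 17.7, 16.9 and 19.0 CPM in parental libraries. Every knockout library was far above every parental one, and the spread inside each group was small. TAGLN rose 2.97-fold, a log2 fold change of 1.57 (SE 0.062, edgeR adjusted p 2.83e-13), and it stayed between 1.53 and 1.61 under the 14 alternative settings. The gene lies on hg38 chromosome 11 from 117199321 to 117204782, plus strand, and its exons overlap those of PCSK7, a proprotein convertase gene on the opposite strand. PCSK7 itself had a log2 fold change of -0.035 (SE 0.056, edgeR adjusted p 0.662). Of the 10 nearest tested genes around TAGLN, 1 was higher and 1 lower. Over the 895 tested genes of chromosome 11, 36.65% were called higher and the median log2 fold change was 0.10.

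MYL9 encodes the myosin regulatory light chain typical of smooth muscle, whose phosphorylation starts contraction. Its counts were 75, 64 and 71 in knockout libraries and 16, 7 and 9 in parental libraries, which is 1.94, 1.61 and 2.29 CPM against 0.467, 0.230 and 0.277 CPM. The groups did not overlap, but the level stayed low, and the parental values rest on few reads. MYL9 rose 5.81-fold, a log2 fold change of 2.54 (SE 0.26, edgeR adjusted p 2.72e-07). From the summed reads, 210 in knockout and 32 in parental libraries, the ratio per scaled library size was 5.82, with an exact 95% interval of 4.001 to 8.73 that covers counting error only. Leaving out single libraries moved the log2 fold change between 2.35 and 2.90. The gene lies on hg38 chromosome 20 from 36541484 to 36551447, and no annotated exon of another gene overlaps it. Of its 10 nearest tested neighbours 2 were higher and 5 lower, with a median log2 fold change of -0.16.

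ACTA2, the gene of alpha smooth-muscle actin and the usual marker of myofibroblasts, moved the opposite way. It had 13.4, 11.0 and 11.9 CPM in knockout libraries, against 20.9, 20.7 and 19.3 CPM in parental libraries. No knockout library reached the lowest parental one. ACTA2 fell by 0.75 on the log2 scale (SE 0.079, edgeR adjusted p 3.55e-07), to 59.6% of the parental level. The count ratio of TAGLN to ACTA2 was 4.02, 4.97 and 4.25 in knockout libraries, against 0.845, 0.814 and 0.982 in parental libraries. ACTA2 lies on hg38 chromosome 10 from 88935074 to 88991339, minus strand, and its exons overlap those of the antisense gene ACTA2-AS1 and of FAS, a death receptor gene, both on the opposite strand. FAS rose by 0.39 (SE 0.092, edgeR adjusted p 0.00229), the direction opposite to ACTA2, and ACTA2-AS1 had 6 to 10 reads in knockout and 4 to 8 in parental libraries. The kit marks strand, but the strand setting of the counting is not given in the sources used here, so reads of the shared exons cannot be assigned with certainty.

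ACTG2, the enteric smooth-muscle gamma-actin gene, was close to the detection limit. It had 11, 7 and 3 reads in knockout libraries and 4, 1 and 1 reads in parental libraries, and the groups overlapped. Over the summed reads, 21 in knockout and 6 in parental libraries, the ratio per scaled library size was 3.11, with an exact 95% interval of 1.21 to 9.40 for counting error only. With no low-count filter, edgeR gave an adjusted p of 0.0873. ACTG2 lies on chromosome 2 (hg38, 73892314 to 73919865), where the median log2 fold change of 1125 tested genes was 0.42 and 66.8% were called higher. Around ACTG2, 8 of the 10 nearest tested genes were higher and 0 were lower, with neighbour values from 0.016 to 0.90. The part of this shift in the ACTG2 reads was not tested.

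The 3 tropomyosin genes rose by similar small amounts. TPM1, alpha-tropomyosin and the most read of the 10 genes, had 743, 807 and 765 CPM in knockout libraries and 624, 608 and 633 CPM in parental libraries. Its log2 fold change was 0.31 (SE 0.041, edgeR adjusted p 5.50e-06). TPM2, beta-tropomyosin, had 379.8, 365 and 361 CPM in knockout libraries and 318, 298 and 293 CPM in parental libraries. TPM2 rose by 0.28 (SE 0.043, edgeR adjusted p 2.57e-05). TPM4 had 586, 640.3 and 611 CPM in knockout libraries and 476, 486 and 483 CPM in parental libraries. It rose by 0.35 (SE 0.041, edgeR adjusted p 1.40e-06). In all 3 genes the lowest knockout library stood above the highest parental library. In folds, the rises were 1.24 for TPM1, 1.22 for TPM2 and 1.27 for TPM4, and their intervals overlapped on the log2 scale (0.23 to 0.40, 0.19 to 0.37 and 0.26 to 0.43).

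TPM3, the remaining human tropomyosin gene, did not pass the test. It stood at 629 CPM in knockout and 595 CPM in parental libraries, a log2 fold change of 0.079 (SE 0.039, edgeR adjusted p 0.115), and it passed the threshold with the replicate number as a block (adjusted p 0.00652). The TPM3 groups did not overlap either, with the lowest knockout library at 614 CPM and the highest parental library at 610 CPM. The 95% interval for TPM1 began above the TPM3 value, but the difference between the genes was not tested. Transcript annotation is dense at these loci, with 34 annotated transcripts for TPM1 and 24 for TPM4 in GENCODE 29, of which 19 and 14 are coding. A change of isoform at an equal number of molecules can move gene counts when the transcripts differ in length, and this was not tested. TPM1 (hg38 chromosome 15, 63042632 to 63071915), TPM2 (chromosome 9, 35681992 to 35690121) and TPM4 (chromosome 19, 16067021 to 16103005) lie on separate chromosomes. Antisense genes that share exons with TPM1 had at most 19 reads in any library, against 18486 or more for TPM1.

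The calponins CNN1 and CNN2 and caldesmon, which bind actin and restrain myosin, did not pass the test. CNN1, the smooth-muscle calponin, had 7, 15 and 4 reads in knockout libraries and 18, 6 and 13 in parental libraries. These few reads overlapped between the groups and gave a log2 fold change of -0.67 with a 95% interval of -1.59 to 0.24 (edgeR adjusted p 0.236), an interval that includes both no change and a 2-fold fall. CNN2, a calponin of non-muscle cells, had 253, 237 and 243 CPM in knockout libraries and 258, 229 and 236 CPM in parental libraries. For CNN2 the depth was high and the interval narrow, -0.076 to 0.12 on the log2 scale (log2 fold change 0.022, edgeR adjusted p 0.751), and the direction turned under some settings. CALD1, caldesmon, had 113, 128 and 128 CPM in knockout libraries and 110.2, 125 and 108 CPM in parental libraries. Its log2 fold change was 0.11 (95% interval -0.016 to 0.23, edgeR adjusted p 0.159), and knockout replicate 1 and parental replicate 2 lay nearest to the other group. Without knockout replicate 1 the CALD1 value was 0.17 (adjusted p 0.00949), without parental replicate 2 it was 0.18 (adjusted p 0.0235), and with the replicate number as a block it was 0.11 (adjusted p 0.0210), all past the threshold. CALD1 lies on chromosome 7 (hg38, 134744252 to 134970728), where 5 of its 10 nearest tested genes were lower and 1 was higher. Of the 808 tested genes of chromosome 7, 266 were lower and 76 higher. CNN1 (11538717 to 11550323) and CNN2 (1026581 to 1039068) both lie on chromosome 19 with TPM4, far apart from one another.

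**Figure D2:**
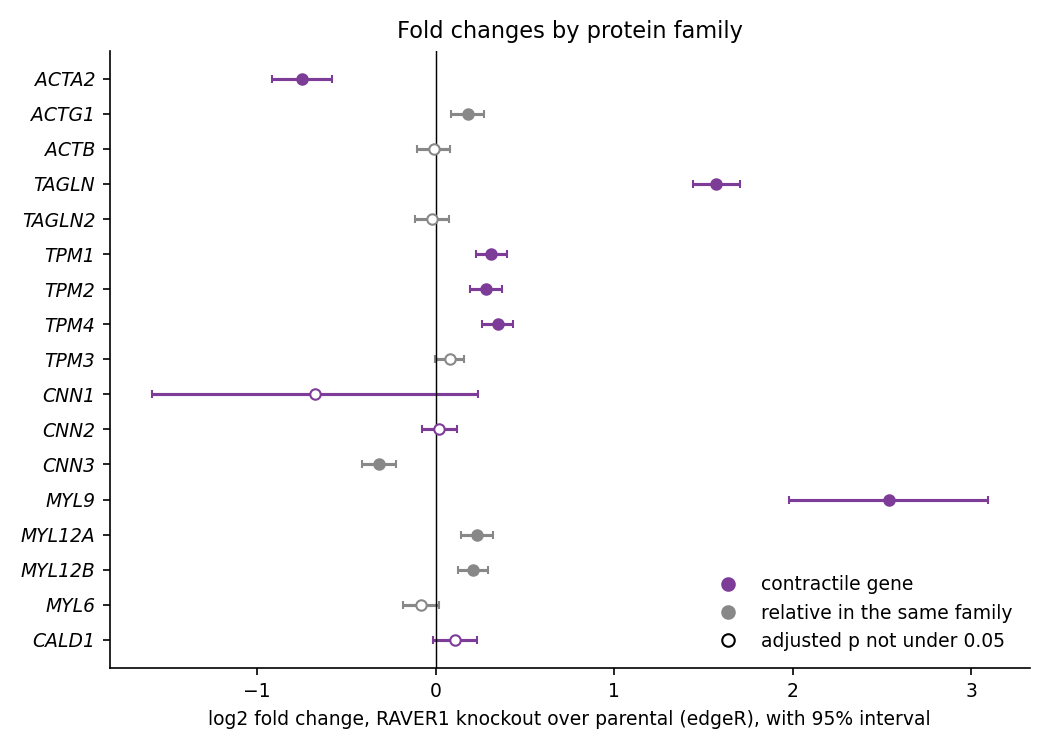
Log2 fold changes of knockout over parental cells from edgeR with 95% intervals, ordered by protein family, for 9 contractile genes (purple) and 8 relatives (grey); open points did not pass the adjusted p threshold. MYL9 at 2.54 and TAGLN at 1.57 stand far to the right, ACTA2 at -0.75 to the left, and the interval of CNN1 is the widest.

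Levels were also set beside those of relatives in the same protein family, as CPM per kilobase of the main coding transcript in GENCODE 29. TAGLN made up 2.99%, 3.23% and 2.99% of the summed transgelin level in knockout libraries, against 0.978%, 1.03% and 1.11% in parental libraries. Almost all of the remainder was TAGLN2, the widely expressed transgelin, with a log2 fold change of -0.020 (SE 0.045, edgeR adjusted p 0.759). MYL9 made up 0.239%, 0.192% and 0.291% of the regulatory light chain level in knockout libraries and 0.0667%, 0.0326% and 0.0407% in parental libraries. Its non-muscle relatives MYL12A (0.23, SE 0.043, edgeR adjusted p 2.51e-04) and MYL12B (0.21, SE 0.041, edgeR adjusted p 3.81e-04) also rose on the log2 scale. ACTA2 made up 0.119%, 0.102% and 0.112% of the actin level in knockout libraries, against 0.192%, 0.208% and 0.186% in parental libraries. Cytoplasmic ACTB stood at -0.010 (SE 0.045, edgeR adjusted p 0.883) and ACTG1 rose by 0.18 (SE 0.044, edgeR adjusted p 0.00249), so the smooth-muscle actins remained a trace of all actin RNA in both groups. The share of TPM3 among tropomyosins was 25.0 ± 0.629% in knockout and 28.1 ± 0.349% in parental libraries (SD, n = 3 each). Its level in CPM was not lower, at 629 in knockout and 595 in parental libraries, beside the rises of TPM1, TPM2 and TPM4. CNN2 held 67.5 ± 1.246% of calponin RNA in knockout and 62.1 ± 2.26% in parental libraries, beside a fall of CNN3, a calponin of non-muscle cells, by 0.32 (SE 0.045, edgeR adjusted p 1.34e-05). The shares of TAGLN, MYL9, ACTA2, TPM3, TPM4 and CNN2 did not overlap between the groups, although the CPM of CNN2 did, and no test was run on shares. Among the relatives, shares of ACTB, ACTG1, TAGLN2 and CNN3 did not overlap either. In CPM, the groups did not overlap for 50.2% of all genes tested. Shares within a family add up to the whole, so a change in 1 gene moves the shares of the others. With the deposited gene lengths, the TPM4 shares overlapped. Absolute shares depend on the length used: with the lengths the authors deposited, TAGLN averaged 1.46% in knockout and 0.488% in parental libraries, MYL9 0.469% in knockout and 0.0910% in parental libraries, and TPM3 15.8% in knockout and 18.0% in parental libraries, each in the same direction as above. ACTB, TPM3 and TAGLN2 were named for these families after their values were seen, and so was MYL6. MYL6, a myosin light chain not counted in the regulatory light chain level, had a log2 fold change of -0.082 (SE 0.048, edgeR adjusted p 0.188). It passed the threshold in 2 of the 14 alternative settings.

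**Figure D3:**
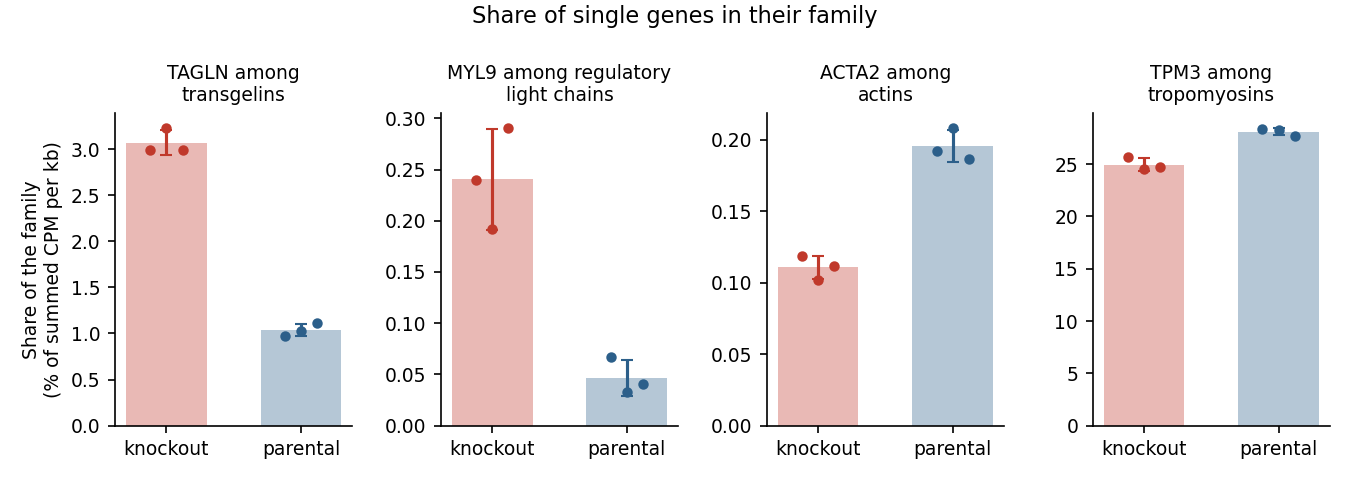
Share of TAGLN, MYL9, ACTA2 and TPM3 in the summed CPM per kilobase of their own family, as percent on axes that start at 0; points are libraries, bars the group means and error bars 1 SD (n = 3 each). TAGLN and MYL9 shares are higher in knockout libraries and ACTA2 and TPM3 shares lower. The TPM3 level in CPM was not lower.

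Per kilobase of the main transcript, the order of mean levels in knockout cells was TPM1 (735 ± 31.3), TPM2 (265 ± 7.19), TPM4 (241 ± 10.7), CNN2 (112 ± 3.50), CALD1 (29.9 ± 2.07), TAGLN (24.5 ± 0.967), ACTA2 (8.96 ± 0.920), MYL9 (0.689 ± 0.12), CNN1 (0.140 ± 0.0800) and ACTG2 (0.0899 ± 0.0456 CPM per kilobase, SD, n = 3). In parental cells 2 neighbouring pairs stood the other way round, with ACTA2 (15.04 ± 0.633) above TAGLN (8.22 ± 0.497) and CNN1 (0.229 ± 0.101) above MYL9 (0.115 ± 0.0444 CPM per kilobase, SD, n = 3). CNN1 and ACTG2 in knockout cells, and CNN1 and MYL9 in parental cells, were closer to each other than the sum of their SDs. With the gene length that the authors deposited, which is longer than the main transcript for 9 of the 10 genes, TPM2 came first and CNN2 second in both groups. Together, TPM1, TPM2 and TPM4 supplied 79.7% to 80.7% of the reads of the 10 genes in knockout libraries and 77.7% to 78.6% in parental libraries.

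Among the factors that act on smooth-muscle promoters, MYOCD stood out by its reads. MYOCD, the coactivator known to drive the smooth-muscle and cardiac programs, had 29, 32 and 30 reads in knockout libraries, against 0, 1 and 0 in parental libraries. The ratio of summed reads, 91 in knockout and 1 in parental libraries, was 80.7 per scaled library size, with an exact 95% interval of 14.1 to 3224 for counting error only. The MYOCD call had an edgeR adjusted p of 1.61e-07, and MYOCD passed the low-count filter through its knockout libraries alone. Its fitted log2 fold change, 5.91, depends on edgeR's prior count and on the single parental read: it was 7.88 without parental replicate 2, which holds that read, and 5.24 with limma-voom, and the call held in the 13 alternatives that kept the gene. Its level of 0.840 CPM in knockout cells was still low. MYOCD lies on hg38 chromosome 17 from 12665890 to 12768949, and 2 of its 10 nearest tested genes were higher and 2 lower. SRF, the DNA-binding partner, stood at 53.5 CPM in knockout and 45.1 CPM in parental libraries and rose by 0.25 (SE 0.053, edgeR adjusted p 9.70e-04). MRTFA had a log2 fold change of -0.067 (SE 0.049, edgeR adjusted p 0.295), and MRTFB fell by 0.26 (SE 0.057, edgeR adjusted p 0.00124). TEAD1, which binds MCAT elements of smooth-muscle promoters, rose by 0.64 (SE 0.061, edgeR adjusted p 7.25e-08). KLF4, a known repressor of smooth-muscle genes, fell by 1.43 on the log2 scale (SE 0.089, edgeR adjusted p 2.00e-10), with 7.94 CPM in knockout and 21.4 CPM in parental libraries. In all, 3 of these 8 factors were higher and 2 lower, with a median log2 fold change of -0.016. Among all genes tested, 21.3% were higher and 20.1% lower.

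Cytoskeletal genes known as SRF and MRTF targets moved mostly upward by small amounts. Of 17 tested, 12 were higher and 2 lower, with a median of 0.19, against 21.3% higher and 20.1% lower among all genes tested. The list was chosen with earlier results of these data known. The matricellular genes CCN1 (0.83, SE 0.062) and CCN2 (0.97, SE 0.074) and ZYX, the focal adhesion protein zyxin (0.49, SE 0.049), rose, each with an edgeR adjusted p of 1.52e-07 or less. PDLIM5, a PDZ and LIM protein of actin bundles, fell by 1.46 (SE 0.051, edgeR adjusted p 4.43e-14). Of 10 markers of differentiated smooth muscle outside the 10 genes, 5 could be tested. Of these 5, 3 were higher and 1 lower, against the same shares of all genes tested. SMTN, smoothelin (0.35, SE 0.051, edgeR adjusted p 1.99e-05), PPP1R14A, a myosin phosphatase inhibitor (0.31, SE 0.062, edgeR adjusted p 5.48e-04), and the intermediate filament gene SYNM (0.22, SE 0.046, edgeR adjusted p 8.50e-04) rose on the log2 scale. SYNPO2, which encodes an actin-bundling protein of muscle, fell by 1.03 (SE 0.15, edgeR adjusted p 1.70e-05).

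Among genes that control contraction or filament length, 14 could be tested, and 6 rose while 5 fell (median log2 fold change 0.14). The number lower was not stable: it was 2 without knockout replicate 1, knockout replicate 3, parental replicate 2 or parental replicate 3 (with 8, 6, 7 and 6 higher), and 3, with 7 higher, when TMM factors were computed without chromosome 2. MYLK, the kinase that phosphorylates MYL9, fell by 0.48 (SE 0.045, edgeR adjusted p 6.78e-08), and LIMK1, a kinase that inactivates cofilin, fell by 0.36 (SE 0.047, edgeR adjusted p 5.76e-06). TMOD1, a tropomodulin that caps tropomyosin-coated filaments, rose by 1.20 (SE 0.14, edgeR adjusted p 7.41e-07), with 6.10 CPM in knockout and 2.65 CPM in parental libraries. Of 12 family relatives of the 10 genes, 9 could be tested, of which 3 were higher and 2 lower, with a median of -0.010. The shares among all genes tested, 21.3% called higher and 20.1% called lower, are the background for each of these lists. The share called higher differed by chromosome and was largest on chromosome 2 (66.8%), where some genes of these lists lie. It was 36.65% on chromosome 11, which holds TAGLN and TEAD1. On chromosome 7, which holds CALD1, ZYX and LIMK1, 9.41% were higher and the median log2 fold change was -0.11. The part of these shifts in the values of single genes was not tested.

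**Figure D4:**
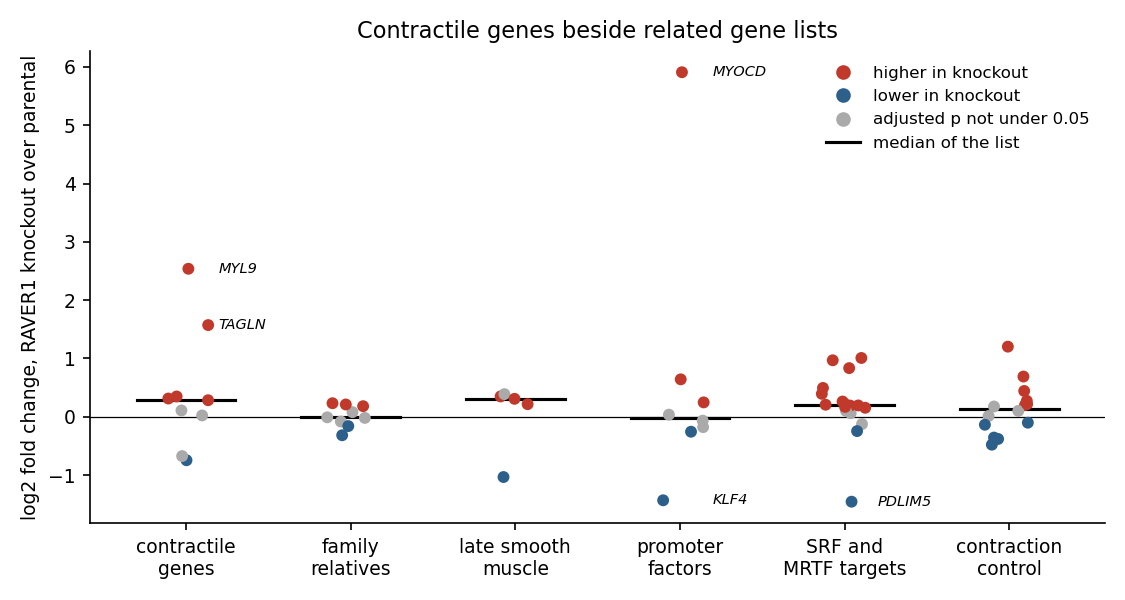
Log2 fold changes of knockout over parental cells for the tested members of 6 gene lists, coloured by call, with a black line at each list's median. MYOCD at 5.91 (a fitted value that depends on edgeR's prior count), MYL9 and TAGLN are the highest points, and KLF4 and PDLIM5 the lowest.

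The pattern over the 6 libraries was compared with that of 12922 other protein-coding genes by Euclidean distance between centred log2 CPM profiles. Nearest to MYL9 were WNT5A (distance 0.222), CDK5R2 (0.310) and LAYN (0.329), whose levels in knockout against parental cells were 1.22 against 0.111 CPM, 3.18 against 0.707 CPM and 5.15 against 1.49 CPM. Nearest to ACTA2 were HID1 (distance 0.0762), LGALS3BP (0.0929) and DRC7 (0.0951). Their levels in knockout against parental cells were 13.9 against 23.7 CPM, 199 against 334 CPM and 0.0643 against 0.443 CPM. An offset of 0.5 CPM was added before taking logs, which shrinks the differences of genes at low levels, so DRC7 stood near ACTA2 although its edgeR log2 fold change was -2.72 against -0.75 for ACTA2.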

How the data were processed

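Per the labels' protocols, TRIzol RNA went into the Illumina Stranded mRNA Prep. The submitters' processing notes name cutadapt 2.8, HISAT2 2.1.0, SAMtools 1.10, featureCounts 2.0.0 and hg38. The authors deposited raw read counts per gene, with no normalization, and a gene length in bases. Annotation release, strand setting and the treatment of reads matching several genes (actin, tropomyosin and calponin genes have near-identical copies) are not stated in these sources.

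From the deposited counts, edgeR 4.0.16 in R 4.3.3 gave fold changes of knockout over parental libraries for 16652 of 60624 genes (filterByExpr, TMM, quasi-likelihood F-test, no covariate, Benjamini-Hochberg over all genes tested, threshold 0.05). Adjusted p-values without a named tool come from this test. Standard errors come from the F statistic. They measure the spread between libraries that the design text calls biological replicates. Replicates of 1 group differed beyond sampling noise (chi-square per degree of freedom 2.42 to 8.86). In simulated counts, the step called 25 of 50 genes at a 1.25-fold change, 36 of 50 at 1.5-fold, 47 of 50 at both 2-fold and 4-fold, and 13 of 16219 unchanged genes. Far fewer genes were changed there than the 41.4% called in the real counts. The adjustment for many tests was therefore stricter, and these rates need not hold for the real comparison. Hyphens were restored in symbols by Ensembl identifier. Positions and overlaps are from GENCODE 29 on hg38.

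The 10 genes and the lists beside them were chosen with earlier results of these data known. Beyond the 10 genes, named genes are RAVER1, SRF, MRTFA, MRTFB, MYOCD, genes whose exons overlap the 10, up to 4 members per list with the smallest adjusted p past the threshold, and the 3 nearest profiles of the most raised and most lowered gene. A gene that this rule names is not reported here. Outside this rule, markers used to check the cell type (among them CDH1, NKX2-1, MYH11, DES and DCN) are given as levels. ACTB, TPM3 and TAGLN2 stand beside their family members, and MYL6 beside the regulatory light chains. Alternatives were RLE and upper-quartile scaling, TMM without chromosome 2, no filter, at least 1 CPM in 3 libraries, the replicate block, DESeq2 1.42.0, limma-voom (limma 3.58.1) and each library left out.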

Additional observations from a re-analysis of the deposited data

How the results depend on the processing

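Calls of 5 genes higher and 1 lower among the 10 held under each of the 14 alternatives, apart from CALD1, which made 6 higher under the replicate block and without knockout replicate 1 or parental replicate 2. ACTA2 stayed between -0.83 and -0.67 and MYL9 between 2.35 and 2.90. CNN2, not called under any setting, turned to -0.011 with upper-quartile scaling and ran from -0.013 to 0.074 with single libraries left out, below 0 without knockout replicate 1 (-0.0014), parental replicate 2 (-0.013) or parental replicate 3 (-0.0018). ACTB, also never called, turned to 0.0010 with TMM without chromosome 2, and ran from -0.043 to 0.028 with single libraries left out, above 0 without knockout replicate 2, knockout replicate 3 or parental replicate 1. TAGLN2 ran from -0.055 to 0.018, above 0 without knockout replicate 2 or parental replicate 1. Genes controlling contraction called lower numbered 3 with TMM without chromosome 2, and 2 to 5 with single libraries left out; relatives called lower numbered 1 to 3. CNN1 and MYOCD fell below the filter of at least 1 CPM in 3 libraries and have no value there. Upper-quartile scaling put 44.45% of calls higher. The causes were not tested.

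Same-numbered libraries had correlations of deviations from their group means of 0.216, 0.0914 and 0.0470. The other pairs ran from -0.166 to 0.0927, and knockout replicate 3 was closest to parental replicate 2 (0.0927). A rule of 0.1 in every same-numbered pair was not met, but these values do not settle whether the numbers pair the samples. With the replicate block, 4275 genes were higher and 4071 lower, against 3543 and 3343 without it, and among the 10 genes 6 were higher and 1 lower. Depth limits ACTG2, CNN1, MYL9 and MYOCD, whose values rest on at most 75 reads per library.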
